A study of Mus musculus with 88 samples.

Results

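The Zscan4 family was followed through 25 mouse libraries of a study of homeobox factors in early development. Its 6 members, Zscan4a, Zscan4b, Zscan4c, Zscan4d, Zscan4e and Zscan4f, were taken by symbol from 2 deposited tables of 55364 genes each. The tables give levels in TPM, a transcript level scaled to gene length and to the library's total, for these libraries: 19 of mouse embryonic stem cells (mESCs) and 6 of late 2-cell embryos. The other 63 samples of the series were not analysed here.

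The mESCs were male, of mixed C57BL/6 and 129 background, and grew on gelatin in medium holding the cytokine LIF with the inhibitors CHIR99021 at 3 uM and PD0325901 at 0.5 uM. Each culture was transfected by a lipid reagent with a plasmid for 1 factor or with an empty plasmid (ES_Empty). ES_Empty, ES_Dux, ES_Obox3, ES_Obox5 and ES_Obox6 have 2 libraries each. ES_Obox1, ES_Obox2, ES_Obox4ps27, ES_Obox4ps35, ES_Obox7, ES_Obox8, ES_Crxos1, ES_Crxos2 and ES_Crxos3 have 1 library each, so their values carry no replicate error and no test. In ES_Dux, ES_Obox3 and ES_Obox5 the labels number the samples 1 and 2, but the table's columns are numbered 1 and 3. Which sample column 3 holds is not known beyond its group, and it is called the unnumbered library. The embryo libraries come from 3 groups of 2, all wild type: embryos made by injecting BDF1 sperm into BDF1 eggs (ICSI_L2C), and clones made by moving cumulus cell nuclei into enucleated eggs, injected with EGFP mRNA (SCNT_EGFP_L2C) or Obox3 mRNA (SCNT_Obox3_L2C) at 10 ng per µl. Nothing in the labels ties the 2 libraries of a group to separate cultures or litters, so a p-value measures the spread between these libraries, which may be technical. In such bulk RNA a change in how many cells express Zscan4 cannot be told apart from a change in RNA per cell.

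Zscan4 proteins pair a SCAN domain, which lets such proteins bind one another, with zinc fingers that bind DNA. In the mouse the genes are switched on in a burst at the late 2-cell stage, when the embryo's own genome is activated, and in a small and shifting fraction of cultured mESCs that resemble that stage. They are known for their link to telomere lengthening and genome stability in mESCs. The homeobox factor Dux is a known activator of the 2-cell programme to which they belong. Obox and Crxos genes encode other homeobox factors expressed in oocytes and early embryos.

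All 6 members and the 3 pseudogenes Zscan4-ps1, Zscan4-ps2 and Zscan4-ps3 lie in 1 cluster on chromosome 7, at chr7:10794241-11614112 (GRCm38.p6, RefSeq), a stretch of 820 kb that holds no other protein-coding gene. Along the chromosome the order is Zscan4a, Zscan4b, Zscan4c, Zscan4-ps1, Zscan4d, Zscan4e, Zscan4f, Zscan4-ps2 and Zscan4-ps3. The tables list the members as ENSMUSG00000110097.1 (Zscan4a), ENSMUSG00000095339.2 (Zscan4b), ENSMUSG00000054272.6 (Zscan4c), ENSMUSG00000090714.10 (Zscan4d), ENSMUSG00000095936.3 (Zscan4e) and ENSMUSG00000070828.10 (Zscan4f). RefSeq calls Zscan4b, Zscan4c, Zscan4d and Zscan4f protein coding, Zscan4a a transcribed pseudogene and Zscan4e a pseudogene. The promoter table matched 4 of the 6 members. Their promoters are shown because the 4 genes were all called higher in ES_Dux and lower in both clone groups than in fertilised embryos, and their start regions are nearly copies of one another. Each line gives the 250 bases before the annotated start, 5′ to 3′ in the gene's direction. They are Zscan4b at chr7:10905051-10905300 (minus strand), Zscan4c at chr7:11005495-11005744 (plus strand), Zscan4d at chr7:11166149-11166398 (minus strand) and Zscan4f at chr7:11397665-11397914 (plus strand). Capitals mark TATAAA, and GATTNAA on either strand.

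Zscan4b: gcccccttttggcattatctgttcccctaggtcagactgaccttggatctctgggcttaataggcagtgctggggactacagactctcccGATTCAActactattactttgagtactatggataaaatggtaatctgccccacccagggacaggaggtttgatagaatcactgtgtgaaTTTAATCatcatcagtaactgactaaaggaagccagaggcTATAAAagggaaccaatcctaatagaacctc
Zscan4c: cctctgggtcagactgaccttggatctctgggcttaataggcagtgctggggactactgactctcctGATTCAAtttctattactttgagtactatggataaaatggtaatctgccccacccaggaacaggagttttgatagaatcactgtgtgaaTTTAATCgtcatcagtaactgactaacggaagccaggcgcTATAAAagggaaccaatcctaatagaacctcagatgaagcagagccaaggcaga
Zscan4d: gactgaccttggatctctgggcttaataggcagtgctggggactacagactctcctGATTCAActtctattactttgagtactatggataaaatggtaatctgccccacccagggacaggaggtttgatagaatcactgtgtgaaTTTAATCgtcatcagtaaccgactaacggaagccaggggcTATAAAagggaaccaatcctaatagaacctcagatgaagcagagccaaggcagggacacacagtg
Zscan4f: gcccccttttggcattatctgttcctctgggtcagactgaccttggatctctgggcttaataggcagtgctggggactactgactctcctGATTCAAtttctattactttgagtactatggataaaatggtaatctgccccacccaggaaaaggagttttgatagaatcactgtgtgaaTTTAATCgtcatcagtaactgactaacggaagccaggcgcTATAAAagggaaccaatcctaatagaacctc

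Over the aligned part of the 300-base windows, which reach 50 bases past the start, identity between pairs of promoters ran from 95.3% for Zscan4b with Zscan4c, with 13 differing bases of 277, to 99.3% for Zscan4c with Zscan4f, with 2 of 277. The sequence letters TATAAA stand in all 4 windows, against 13.6% of the 32851 windows of the same length in the table. Their distance from the annotated start differs, from 31 bases before it in Zscan4b and Zscan4f to 54 in Zscan4c and 65 in Zscan4d, because the windows are offset from one another by up to 34 bases. GATTNAA, the first letters of a core bound by Dux, stands on each strand of all 4 windows and on either strand of 9.45% of all windows. The longer GATTNAATC is in none of the 4 and in 0.268% of all windows, and TAATCC, a core of Obox-type homeodomains, is in none of the 4 and in 7.06% of all windows. Both strands were searched throughout, GATTNAATC contains GATTNAA, and the motifs were chosen with the sequences in view. A match of letters is no evidence of binding, and the lack of one says nothing about a factor.

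Many values of the members and pseudogenes were not whole reads on the scale below, and whether reads had been shared out among these copies was not tested. The values of miRNA genes, whose lengths are known, gave the TPM that 1 read is worth in each library. The smallest step held by a share of at least 0.05 of them was taken as 0.5 of a read, so values ending in 0.5 were built in. Every read count here rests on that assumption, which was not tested. On that scale 44.6% to 59.1% of them were whole reads, library by library. A further 26.3% to 37.2% ended in 0.5 of a read, and the rest were other fractions. By that scale 48 of the 90 member values above 0 outside ES_Dux and ICSI_L2C were not whole reads (tolerance 0.025 reads). The sum over the 6 members and 3 pseudogenes was whole in 19 of the 20 such libraries with any read, and the sum over the 6 members alone in 12 of them. In ES_Dux and ICSI_L2C the sum over the 9 genes was whole in 0 of 4 libraries. On that scale low values of single members, and sums over the 6, thus include reads counted in fractions.

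The transfected or injected gene was read first. Duxf3, the symbol under which both tables list Dux, reached 1548 and 1979 TPM in ES_Dux and no more than 1.45 TPM in any other mESC library. Obox5 stood at 933 to 971 TPM in ES_Obox5 and Obox6 at 1959 to 2031 TPM in ES_Obox6, each above every other mESC library. Obox3 reached only 1.59 to 1.75 TPM in ES_Obox3, against at most 0.502 TPM elsewhere. In the embryos it read 6.74 and 5.02 TPM in SCNT_Obox3_L2C, 0.470 and 3.22 TPM in SCNT_EGFP_L2C, and 78.7 and 64.6 TPM in ICSI_L2C. Whether the deposited values count plasmid or injected Obox3 RNA in full was not tested. All 7 mESC markers reached 1 TPM in every mESC library, and their summed level was 1056 to 1227 TPM in ES_Empty, 342 to 366 in ES_Dux, 376 to 515 in ES_Obox3, 549 to 554 in ES_Obox5 and 541 to 651 in ES_Obox6. Its part in the Zscan4 values was not tested.

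All 6 members rose in ES_Dux, from 1.59 TPM or less in ES_Empty to 401 TPM or more. Summed over the 6 members, ES_Dux held 4276 TPM in replicate 1 and 4752 TPM in the unnumbered library, and ES_Empty held 3.05 and 0.513 TPM. Zscan4d was the highest member, at 1037 and 1232 TPM in ES_Dux against 0.0591 and 0.0451 TPM in ES_Empty. Every member showed the same gap, with no overlap between the groups, and the share of all genes without overlap was not counted.

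Zscan4b followed at 899 and 1031 TPM in ES_Dux, against 0.0745 and 0.114 TPM in ES_Empty. Zscan4e, a pseudogene in RefSeq, reached 818 and 882 TPM from 0.599 and 0.114 TPM. Zscan4a, also annotated as a pseudogene, reached 566 and 636 TPM from 0.354 and 0.0450 TPM. Both lay within the range of the 4 protein-coding members. Zscan4c reached 555 and 524 TPM from 1.59 and 0.0901 TPM, and its first value, 13.5 reads, was the highest of any member in ES_Empty. Zscan4f was the lowest member in ES_Dux, at 401 and 446 TPM against 0.366 and 0.105 TPM. Most ES_Empty values rest on 4 reads or fewer, down to 0.5 reads for Zscan4d in each library, so no ratio is given. The values are drawn by library in the plot of mESC levels.

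**Figure D1:**
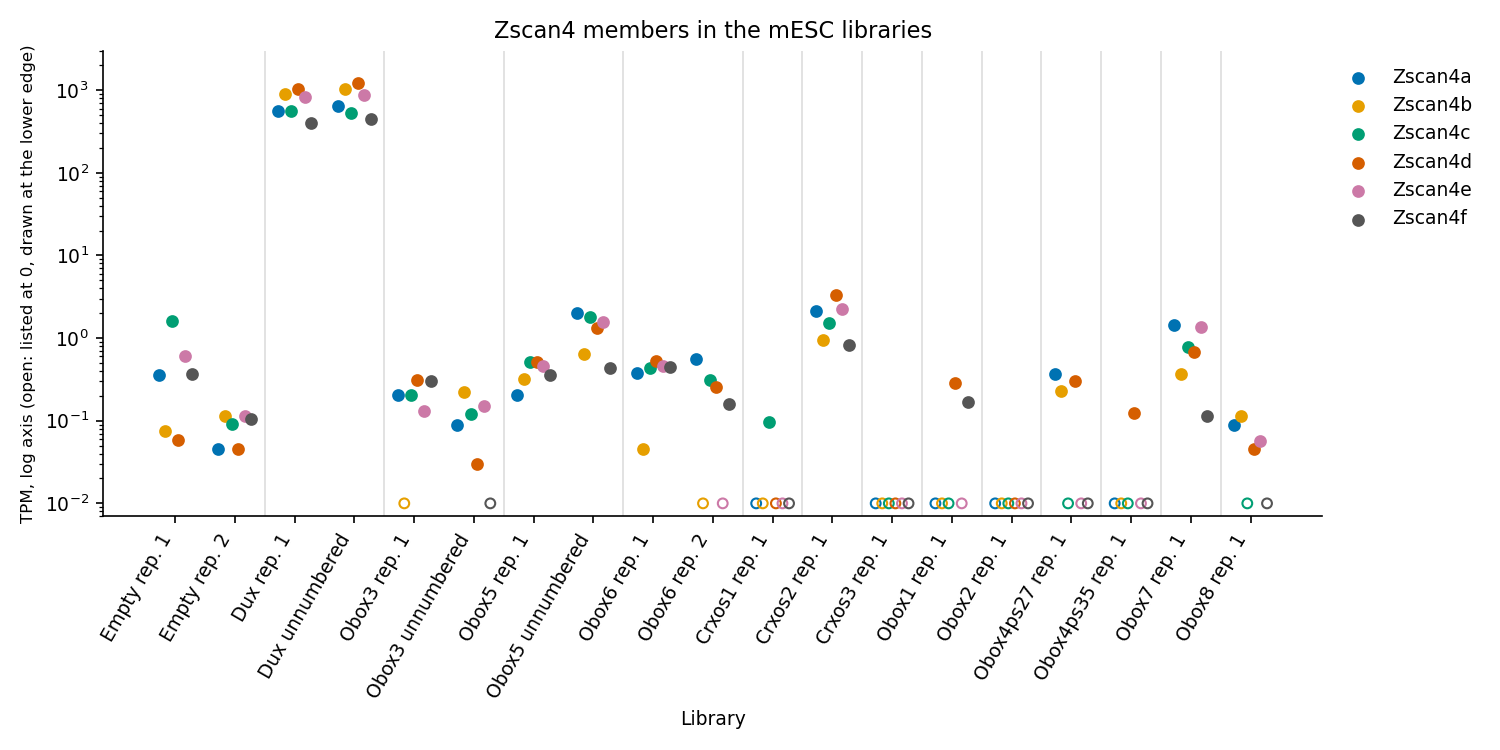
Level of each Zscan4 member (TPM, log axis) in each of the 19 mESC libraries, 1 point a member; open circles are values listed at 0, drawn at the lower edge. The 2 ES_Dux libraries lie between 401 and 1232 TPM for all members, and no member passes 3.36 TPM in any other library.

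Differences are given in log2(TPM + 1), in which a change near 0 TPM appears smaller than it is. By this measure ES_Dux exceeded ES_Empty by 10.07 ± 0.25 (SE) for Zscan4d, 9.78 ± 0.20 for Zscan4b, 9.32 ± 0.31 for Zscan4e, 8.98 ± 0.38 for Zscan4a, 8.43 ± 0.22 for Zscan4f and 8.33 ± 0.41 for Zscan4c. All 6 members were called higher by limma, with adjusted p between 8.76e-08 and 6.89e-06, where a call needs an adjusted p under 0.05 over all genes and a difference of at least 1. Of 20355 genes tested, 4.12% were called higher and 44.4% lower, and the median gene fell by 0.97. With libraries scaled to a common median ratio, 1421 genes were called higher and 435 lower, and all 6 members were still called. The members passed the filter on low values, 1 TPM in at least 2 libraries, chiefly through ES_Dux, so their passing and their call are not independent; with no filter all 6 were called as well. Without either ES_Dux library 4 members passed the filter and all 4 were called, with the lone ES_Dux library assumed to vary like the other groups. Without the 3 unnumbered libraries Zscan4c alone passed it and was called, and with no filter all 6 were called in each of these cases.

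Zscan4 stayed low in the cells given Obox factors, and no member was called in any of these comparisons. The family's sum was 1.15 and 0.615 TPM in ES_Obox3, 2.37 and 7.82 TPM in ES_Obox5, and 2.29 and 1.29 TPM in ES_Obox6. The ranges of ES_Obox3, ES_Obox5 and ES_Obox6 all overlap that of ES_Empty.

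In ES_Obox3 the differences from ES_Empty ran from -0.53 ± 0.41 for Zscan4c to 0.14 ± 0.25 for Zscan4d on the log2 scale. By limma 0 of 6 members were called and 0 had an unadjusted p under 0.05, while 4.67% of all genes were called higher and 13.6% lower (1582 and 764 genes with median-ratio scaling, 951 and 2770 without). At that unadjusted p stood 8853 of 20355 genes tested. In ES_Obox5 all 6 estimates were above 0. Zscan4d read 0.514 and 1.33 TPM there, above both ES_Empty libraries, and differed by 0.84 ± 0.25 (limma adjusted p = 0.0567). Zscan4b read 0.324 and 0.638 TPM, also above both ES_Empty libraries, and differed by 0.43 ± 0.20 (limma adjusted p = 0.183). The share of all genes above both ES_Empty libraries was not counted. Zscan4a read 0.205 and 2.03 TPM and differed by 0.69 ± 0.38 (limma adjusted p = 0.261), its groups overlapping. Of the 6 members, 0 were called and 1, Zscan4d, had an unadjusted p under 0.05, beside 4.79% of all genes called higher and 5.47% lower (1240 and 487 genes with median-ratio scaling, 974 and 1114 without). At that unadjusted p stood 6115 of 20355 genes tested. The Zscan4d result turned on the pseudocount: at 0.1 TPM in place of 1 TPM its difference was 2.63 (limma adjusted p = 0.0213) and it was called. Without ES_Obox5 replicate 1, which leaves only the unnumbered library in that group and assumes that it varies like the other groups, Zscan4a was called instead, at 1.35 (limma adjusted p = 0.0272).

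ES_Obox6 gave differences from -0.30 ± 0.41 for Zscan4c to 0.40 ± 0.25 for Zscan4d. Zscan4d, at 0.526 and 0.257 TPM, and Zscan4a, at 0.380 and 0.564 TPM, were above both ES_Empty libraries, and Zscan4b, at 0.0453 and 0 TPM, was below both. These ES_Obox6 values rest on 0 to 5.5 reads, and the share of all genes without overlap was not counted. Again limma called 0 of 6, with 0 at an unadjusted p under 0.05, beside 2.39% of genes called higher and 1.99% lower (569 and 268 genes with median-ratio scaling, 486 and 406 without). At that unadjusted p stood 4049 of 20355 genes tested. Set directly against the mean of ES_Obox3, ES_Obox5 and ES_Obox6, ES_Dux was higher in all 6 members, by 8.38 ± 0.18 for Zscan4f to 9.67 ± 0.16 for Zscan4b. In that comparison 3.38% of genes were called higher and 27% lower, or 1503 and 1340 genes with median-ratio scaling.

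Among the 9 groups with 1 library, ES_Crxos2 held the most Zscan4, a family sum of 11.1 TPM from 81.2 reads. Zscan4d read 3.36 TPM, Zscan4e 2.25 TPM, Zscan4a 2.15 TPM, Zscan4c 1.52 TPM, Zscan4b 0.959 TPM and Zscan4f 0.834 TPM in that library. Zscan4d, Zscan4e and Zscan4a, 3 of the 6 members, were at least 1 above the ES_Empty mean on the log2(TPM + 1) scale, as were 4.03% of all genes in ES_Crxos2. ES_Obox7 came next at 4.74 TPM, with Zscan4a at 1.45 TPM the 1 member past that fold, beside 7.03% of all genes. No member passed it in the other 7 libraries, where the shares of all genes were 4.32% in ES_Crxos1, 7.57% in ES_Crxos3, 3.6% in ES_Obox1, 3.49% in ES_Obox2, 4.61% in ES_Obox4ps27, 3.62% in ES_Obox4ps35 and 6.98% in ES_Obox8. The family's sum was 0.906 TPM in ES_Obox4ps27, 0.458 in ES_Obox1, 0.306 in ES_Obox8, 0.123 in ES_Obox4ps35 and 0.0961 in ES_Crxos1. In ES_Crxos3 and ES_Obox2 all 6 members were listed at 0, where 3 reads, the limit that a count of 0 allows, would be 0.356 to 0.504 TPM a member. Below ES_Dux the order of groups is not resolved, since the 2 ES_Empty libraries alone span 0.513 to 3.05 TPM.

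In embryos the family was high after fertilisation and low after cloning. ICSI_L2C summed to 243 and 177 TPM over the 6 members, SCNT_Obox3_L2C to 10.7 and 9.82 TPM, and SCNT_EGFP_L2C to 1.31 and 1.81 TPM, so the 3 groups did not overlap. Zscan4a led in fertilised embryos, at 67.2 and 47.7 TPM, and read 0.318 and 0.579 TPM in the EGFP clones. Zscan4d read 65.5 and 28.0 TPM in fertilised embryos against 0.319 and 0.689 TPM in those clones.

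The remaining members were likewise apart. Zscan4e read 34.8 and 30.8 TPM in ICSI_L2C and 0.0289 and 0.191 TPM in SCNT_EGFP_L2C. Zscan4b read 24.0 and 32.4 TPM against 0.0862 and 0.136 TPM. Zscan4c read 25.5 and 21.9 TPM against 0.455 and 0.193 TPM. Zscan4f read 26.3 and 15.9 TPM, the lowest member in the second fertilised library but not in the first, against 0.106 and 0.0250 TPM. The EGFP clone values rest on 0.5 to 16 reads a member. Both fertilised libraries exceeded both EGFP clone libraries in all 6 members, and the share of all genes that did so was not counted.

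**Figure D2:**
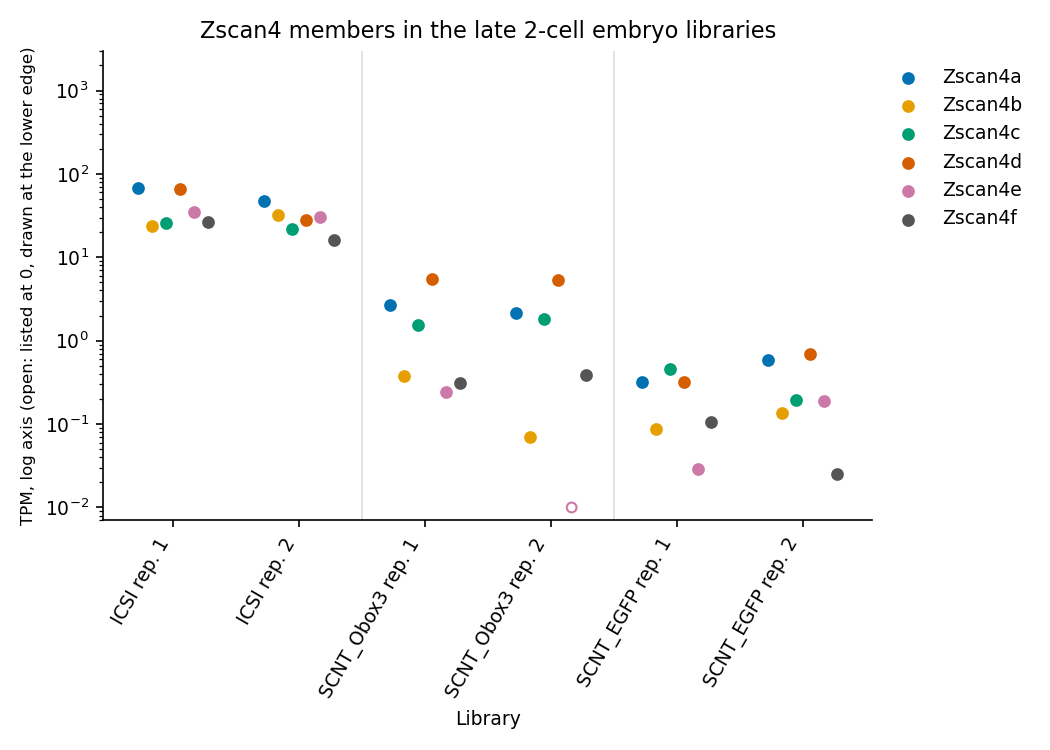
Level of each Zscan4 member (TPM, log axis) in the 6 late 2-cell embryo libraries, 1 point a member; the open circle, a value listed at 0, is drawn at the lower edge. ICSI_L2C lies at 15.9 to 67.2 TPM, and in SCNT_Obox3_L2C only Zscan4a, Zscan4c and Zscan4d pass 1 TPM.

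By limma all 6 members were called lower in the EGFP clones than in fertilised embryos, from -4.23 ± 0.23 for Zscan4c to -5.32 ± 0.25 for Zscan4a on the log2 scale (adjusted p 0.000978 to 0.00181). Over 18252 genes, 4.8% were called higher and 12.5% lower (1114 and 1610 genes with median-ratio scaling, 877 and 2287 without). Zscan4b, Zscan4e and Zscan4f passed the filter only through ICSI_L2C, so their passing and their call are not independent. With no filter and all libraries kept, all 6 were called as well. Zscan4a, Zscan4c and Zscan4d passed also through SCNT_Obox3_L2C. Without either ICSI_L2C library those last 3 passed the filter and all 3 were called, with the lone library assumed to vary like the other groups. With no filter and either one left out, 0 of 6 were called, at adjusted p 0.0715 and 0.0738, with differences from -3.99 to -5.56.

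Clones given Obox3 mRNA had more Zscan4d, Zscan4a and Zscan4c than EGFP clones in both libraries, but no member passed the test. Zscan4d read 5.47 and 5.38 TPM (173 and 96.5 reads) in SCNT_Obox3_L2C, above its 0.319 and 0.689 TPM (7 and 16 reads) in SCNT_EGFP_L2C, a difference of 2.11 ± 0.39 (limma adjusted p = 0.0895). For Zscan4a the Obox3 clones read 2.69 and 2.14 TPM, a difference of 1.24 ± 0.25 (limma adjusted p = 0.0956). Zscan4c read 1.56 and 1.84 TPM there, a difference of 1.03 ± 0.23 (limma adjusted p = 0.106). Zscan4f, at 0.311 and 0.388 TPM, was also above both EGFP libraries, by 0.34 ± 0.29. Zscan4b, at 0.378 and 0.0703 TPM, and Zscan4e, at 0.240 and 0 TPM, overlapped with the EGFP clones, and their differences were 0.13 ± 0.27 and 0.01 ± 0.24.

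Thus 4 of 6 members had both Obox3 clone libraries above both EGFP clone libraries, as did 25.4% of all genes. Limma called 0 of 6 members, with 3, Zscan4a, Zscan4c and Zscan4d, at an unadjusted p under 0.05, as were 3294 of 18252 genes tested. It called few genes of any kind in this comparison, 0.11% higher and 0.0438% lower, 20 and 8 of 18252, against 257 and 32 with median-ratio scaling, and no member was called under either.

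Against fertilised embryos, the Obox3 clones were lower in all 6 members, from -2.77 ± 0.39 for Zscan4d to -4.92 ± 0.24 for Zscan4e, beside 2.8% of genes called higher and 6.31% lower (740 and 702 genes with median-ratio scaling, 511 and 1152 without). All 6 were called by limma, and also with no filter and all libraries kept. Zscan4b, Zscan4e and Zscan4f passed the filter only through ICSI_L2C, so their passing and their call are not independent. For Zscan4d the call was lost without either Obox3 clone library, at -2.78 (limma adjusted p = 0.0526) without replicate 1 and -2.76 (limma adjusted p = 0.0647) without replicate 2. Without either ICSI_L2C library 3 members passed the filter and were called, and with no filter 0 of 6 were, at adjusted p of 0.0992 and 0.0891. These embryo comparisons share groups, so they are not independent of each other. The summed level of the 8 cumulus cell markers was 0.842 to 2.53 TPM over the 6 embryo libraries. That of the 7 oocyte markers was 551 to 623 TPM in ICSI_L2C, 362 to 370 in SCNT_Obox3_L2C and 425 to 462 in SCNT_EGFP_L2C, and its part in the Zscan4 values was not tested.

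**Figure D3:**
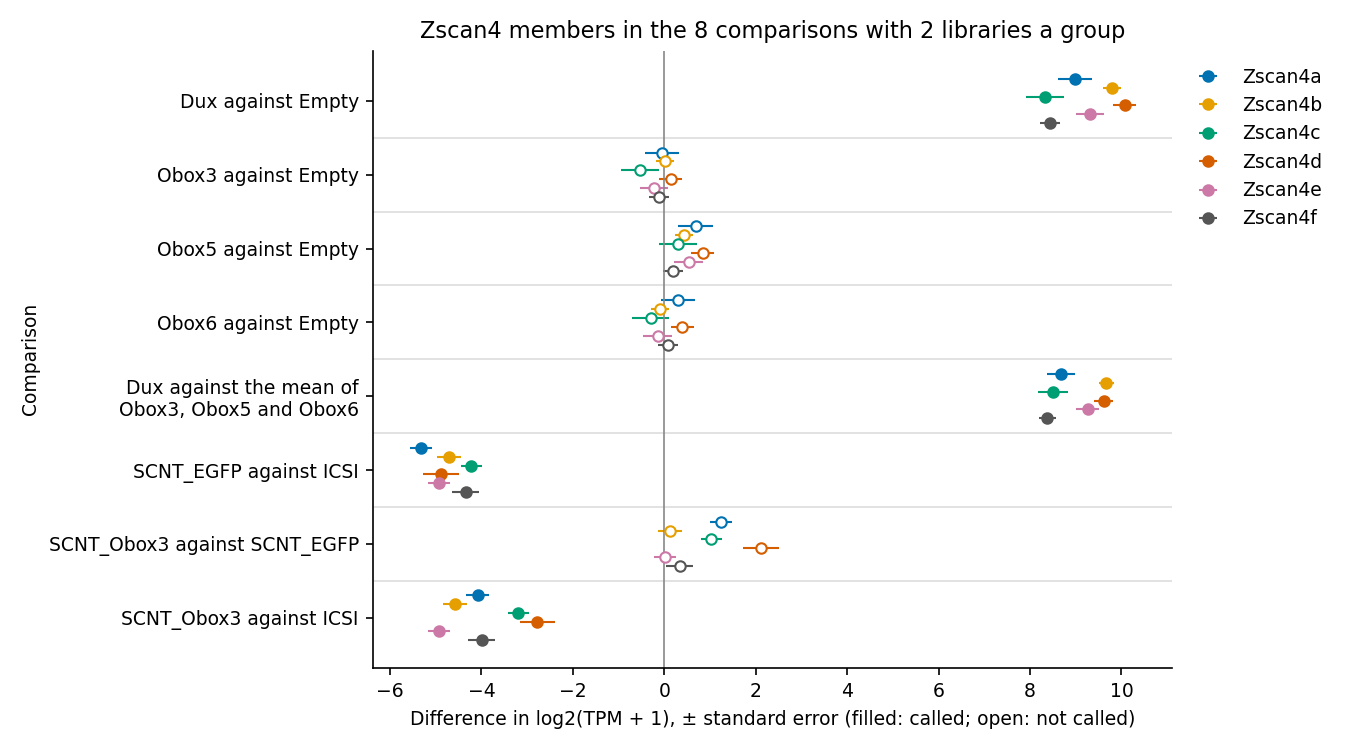
Difference in log2(TPM + 1) with its standard error for each member in the 8 comparisons between groups of 2 libraries; filled points were called, open points were not. Zscan4d differs by 2.11 between Obox3 and EGFP clones and Zscan4e by 0.01.

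The shares of the members in the family's sum lay apart between some groups and overlapped between others. In ES_Dux Zscan4d gave 24.3% and 25.9% of the summed TPM and Zscan4b 21.0% and 21.7%. In ICSI_L2C Zscan4a gave 27.6% and 27.0% and Zscan4d 26.9% and 15.8%, so the Zscan4d shares of ES_Dux and ICSI_L2C overlapped. In SCNT_Obox3_L2C Zscan4d alone gave 51.3% and 54.8%, above its 24.3% and 38.0% in SCNT_EGFP_L2C. Zscan4b and Zscan4e together, a pair chosen after their values were seen, gave 5.81% and 0.716% in SCNT_Obox3_L2C, 24.2% and 35.8% in ICSI_L2C, 8.77% and 18.0% in SCNT_EGFP_L2C and 40.2% and 40.3% in ES_Dux. These shares do not overlap between the Obox3 clones and either other embryo group, but 2 libraries against 2 cannot reach significance: each two-sided exact permutation test gave p = 0.333, the smallest it can give. Shares within the EGFP clones rest on 28 and 40.5 reads.

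**Figure D4:**
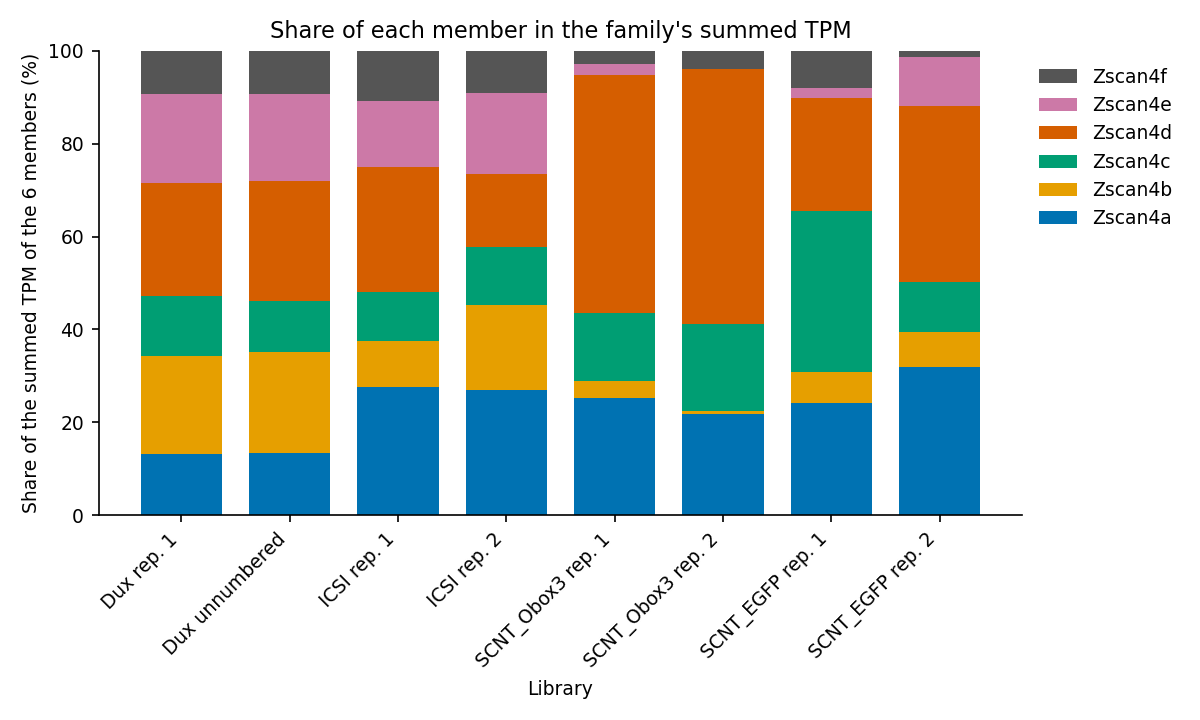
Share of each member in the summed TPM of the 6 members (percent, stacked bars from 0) in 8 libraries of ES_Dux and the embryo groups. Zscan4d takes 51.3% and 54.8% in the Obox3 clones and 15.8% and 26.9% in the fertilised embryos.

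The 3 Zscan4 pseudogenes were called in the same direction as the members in ES_Dux and in both clone groups against ICSI_L2C. In ES_Dux Zscan4-ps3 read 608 and 642 TPM, Zscan4-ps1 538 and 589 TPM and Zscan4-ps2 368 and 366 TPM, and 3 of 3 were called higher, beside 4.12% of all genes. In SCNT_EGFP_L2C 3 of 3 were called lower than in ICSI_L2C, by -4.45 ± 0.34 for Zscan4-ps3, -3.06 ± 0.26 for Zscan4-ps2 and -2.88 ± 0.46 for Zscan4-ps1, beside 12.5% of all genes called lower. None was called between Obox3 and EGFP clones, with 0 at an unadjusted p under 0.05 by limma, beside 3294 of 18252 genes tested. There the estimate for Zscan4-ps1 was below 0 (-0.17 ± 0.46) while those of the 6 members were above it. In the embryo fit Zscan4-ps2 and Zscan4-ps3 passed the filter only through ICSI_L2C. In the mESC fit Zscan4-ps2 passed only through ES_Dux, and Zscan4-ps3 reached 1 TPM otherwise only in the unnumbered ES_Obox5 library. For these the passing and the calls are not independent. Any reads shared with the members cannot be told apart from reads of the pseudogenes.

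The genes beside the cluster that could be tested differed by at most 1.93 in ES_Dux on the log2(TPM + 1) scale, which shrinks changes near 0 TPM. Over all genes 4.12% were called higher there. Of the 5 nearest protein-coding genes before it, Vmn1r68, Vmn1r69, Vmn1r70, Vmn1r71 and Nlrp4b, 3 could be tested and 2 were called higher. Nlrp4b, of a family of oocyte NLR proteins, read 2.18 to 2.48 TPM against at most 0.0598 in ES_Empty (1.69 ± 0.34, limma adjusted p = 0.00265), and Vmn1r71, a vomeronasal receptor gene, read 2.58 to 3.45 TPM (1.93 ± 0.33, limma adjusted p = 0.00122). Of the 5 after it, Vmn1r72, Vmn1r73, Vmn1r74, Vmn1r75 and Vmn1r76, Vmn1r72 alone could be tested and was called higher, at 1.04 to 1.14 TPM (1.06 ± 0.41, limma adjusted p = 0.0465). These neighbours reached 1 TPM in no mESC group but ES_Dux, so they passed the filter only through the group where they are high, and their calls are not independent of that. None of the neighbours tested was called in the ES_Obox3, ES_Obox5, ES_Obox6 or embryo comparisons. Every untested neighbour also had a higher mean in ES_Dux, from 0.280 TPM for Vmn1r76 to 0.902 TPM for Vmn1r73. In ES_Empty the means of these untested genes were at most 0.0367 TPM, and the share of all genes with a higher mean was not counted.

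Known activators of Zscan4 or of the 2-cell-like state did not move as 1 group. Besides Duxf3, the transfected gene, Nelfa, a subunit of the NELF pausing complex, rose in ES_Dux from 9.38 to 12.1 TPM in ES_Empty to 62.8 to 65.5 TPM (2.48 ± 0.24, limma adjusted p = 0.000207). Tbx3, a T-box factor of naive mESCs, fell there by 2.55 and Dppa4, a chromatin protein, by 1.52, so 2 of 5 rose and 2 fell. Over all genes 4.12% were called higher and 44.4% lower. The list median was -0.69 against -0.97 for all genes, and with median-ratio scaling 2 of the 5 rose and 1 fell. Dppa2, the partner of Dppa4, rose in ES_Obox3 from 32.7 to 41.6 TPM in ES_Empty to 110 to 160 TPM (1.82 ± 0.25) and in ES_Obox5 to 143 to 167 TPM (2.04 ± 0.25), in cells where no Zscan4 member was called, while Tbx3 fell in both. With median-ratio scaling 3 of the 5 rose in ES_Obox3 and 2 in ES_Obox5, and none fell. Without that scaling Duxf3 itself differed by 0.90 ± 0.22 in ES_Obox3 (limma adjusted p = 0.0179) and 0.85 ± 0.22 in ES_Obox5. It read 0.914 to 1.45 TPM and 1.05 to 1.13 TPM, where log2(TPM + 1) shrinks a change, and stayed under the fold a call needs. Whether Duxf3 was among the genes called with that scaling is not given here. In fertilised embryos Duxf3 read 1.97 to 4.40 TPM. It was called lower in the EGFP clones (-1.52 ± 0.38, limma adjusted p = 0.0335), as was Tbx3 (-4.25 ± 0.25), beside 12.5% of all genes called lower. With median-ratio scaling 1 of the 5 was called lower. Between Obox3 and EGFP clones 0 of 5 were called and 2 had an unadjusted p under 0.05 by limma, as had 3294 of 18252 genes tested. The 2 were Dppa2 at 1.24 ± 0.20 and Dppa4 at 0.94 ± 0.16. Over all genes 0.11% were called higher and 0.0438% lower between the clones. With median-ratio scaling 1 of the 5 was called higher, and the count of all genes called with it is given above.

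Of 23 repressors of Zscan4 or of the 2-cell-like state, 0 were called higher and 20 lower in ES_Dux, where 44.4% of all genes were called lower, with a median of -1.44 against -0.97 for all genes. Most of that count followed the scale: with median-ratio scaling 3 were called lower. The largest falls were in the DNA demethylases Tet2 (-2.57 ± 0.24) and Tet1 (-2.41 ± 0.24), in Mga (-2.47 ± 0.23), a subunit of a repressive Polycomb complex, and in Myc (-2.11 ± 0.22). In ES_Obox3 and ES_Obox5, 6 and 3 of these genes were called lower, beside 13.6% and 5.47% of all genes. Among them was Myc (-2.60 ± 0.22 and -2.16 ± 0.22). Median-ratio scaling made the counts 2 higher and 2 lower in ES_Obox3 and 1 higher and 2 lower in ES_Obox5. Of 13 telomere genes tested, 11 were called lower in ES_Dux and 0 higher, among them Tert (-2.14 ± 0.26), the telomerase reverse transcriptase, and Terf1 (-1.81 ± 0.28) and Terf2 (-1.87 ± 0.17), which bind telomere repeats. In that comparison 44.4% of all genes were called lower, and with median-ratio scaling 1 of the 13 was. In the EGFP clones 2 of 13 were lower than after fertilisation, Terf2ip (-2.58 ± 0.23) and Tinf2 (-1.01 ± 0.16), both parts of the shelterin complex, a share near the 12.5% of all genes called lower, and 1 was lower with median-ratio scaling.

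Genes known to accompany Zscan4 at the 2-cell stage were also called in comparisons where no Zscan4 member was. Of 28 tested, 25 were called higher in ES_Dux, beside 4.12% of all genes, with a median difference of 5.68 against -0.97 for all genes. The largest differences were in AW822073 (11.35 ± 0.32) and Usp17le (9.26 ± 0.31), a deubiquitinase gene. In ES_Obox3 16 of 28 were called higher, in ES_Obox5 20 and in ES_Obox6 7, with medians of 1.21, 1.94 and 0.76, while 0 of 6 Zscan4 members were. Over all genes 4.67%, 4.79% and 2.39% were called higher in these comparisons, with medians of -0.42, -0.20 and -0.09. Trim43a, a tripartite motif gene of the preimplantation embryo, read 70.0 to 104 TPM in ES_Obox3, 76.9 to 90.4 in ES_Obox5 and 63.6 to 74.7 in ES_Obox6, but 0.353 to 0.427 TPM in ES_Dux and at most 0.135 TPM in ES_Empty. Tmem92 read 3.29 to 5.57 TPM in ES_Obox3, 4.33 to 5.50 in ES_Obox5 and 55.4 to 65.1 in ES_Dux. Usp17le, a gene with near copies, read 1.37 to 2.59 TPM in ES_Obox3 and 762 to 767 TPM in ES_Dux. With median-ratio scaling the counts were 25, 18, 19 and 8 in ES_Dux, ES_Obox3, ES_Obox5 and ES_Obox6.

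The same list was lower in clones. Of 28 genes tested, 22 were called lower in SCNT_EGFP_L2C than in ICSI_L2C and 16 lower in SCNT_Obox3_L2C, against 19 and 11 with median-ratio scaling. Over all genes 12.5% and 6.31% were called lower in these comparisons, without that scaling. Between the clones limma called 0 of 28, and 5 were called higher with median-ratio scaling. At an unadjusted p under 0.05 by limma were 12 of the 28, all higher in the Obox3 clones, beside 2127 of 18252 genes that were higher. The largest differences there were Tcstv3, at 20.8 to 48.8 TPM against 4.92 to 5.31 TPM (2.43 ± 0.41, limma adjusted p = 0.0864), and B020004J07Rik, at 24.2 to 30.0 TPM against 4.90 to 7.54 TPM (1.98 ± 0.25, limma adjusted p = 0.0576). The median of the list was 0.66 between the clones, beside 0.69 for the Zscan4 members and -0.03 for all genes.

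Of 26 other SCAN-domain zinc finger genes tested in mESCs, 0 were called higher in ES_Dux and 18 lower, beside 44.4% of all genes called lower, or 1 lower with median-ratio scaling, and Zscan10, a factor of pluripotent cells, read 7.99 to 9.96 TPM there against 37.5 to 47.7 in ES_Empty (-2.12 ± 0.21). Zscan5b was called higher in ES_Obox5, at 3.39 to 4.96 TPM against 0.414 to 0.950 TPM (1.62 ± 0.30), and in the embryos it read 257 to 261 TPM in ICSI_L2C, 85.4 to 101 TPM in SCNT_Obox3_L2C and 41.9 to 52.2 TPM in SCNT_EGFP_L2C. Its difference between fertilised embryos and EGFP clones was -2.44 ± 0.18, and 4 of 25 genes of the list were called lower there, or 3 with median-ratio scaling, a share near the 12.5% of all genes.

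The genes whose levels ran most like the mean of the 6 members depended on whether ES_Dux was included. Over all 19 mESC libraries the most alike were Zscan4-ps3 (Pearson r 0.997), Zscan4-ps2 (0.996), Gm13106 (0.995), Zscan4-ps1 (0.995) and Gm18640 (0.994), and members correlated with one another at 0.990 to 0.997. These values are carried by the 2 ES_Dux libraries, which hold nearly all of the spread. Over the 17 other libraries the members correlated at 0.622 to 0.916, and the most alike genes were Gm48698, Gm23586, Gm25697, Gm23193 and Gm22195, each at 0.854 or 0.855, each with a median of 0 TPM and a highest value of 2.11 to 8.00 TPM. Duxf3 correlated with the family at 0.986 over 19 libraries and at 0.0688 over 17. Over the 6 embryo libraries the most alike were Zscan4-ps2 (0.999), Gm37010, Prdm2, a histone methyltransferase of the PR-domain family, Siah1a, a ubiquitin ligase, and Pnp, purine nucleoside phosphorylase, all at 0.998, and the members correlated at 0.887 to 0.997. These correlations describe libraries that share groups and scale, and carry no test.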

How the data were processed

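RNA was measured by sequencing of total RNA (stranded SMART-seq kit, per the labels' protocols) in 19 mESC and 6 embryo libraries. The authors deposited 2 tables of TPM, normalised apart. Levels were not compared between them; only the shares of members within a library are set side by side. HISAT2, Trim Galore and featureCounts 1.6.5 and the mm10 build are among the names in the submitters' processing notes; their roles, the annotation, the strand setting and the rule for reads with several sites were not given in the sources used here. Read depth is not in the tables.

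Members and gene lists were chosen with earlier results of these data known. Every member was followed in every library; from each list up to 4 genes with the largest difference in a comparison were open to be named, with every called gene of lists of 5 or fewer, and in likeness and neighbourhood the 5 nearest genes.

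limma 3.58.1 (R 4.3.3) was fitted to log2(TPM + 1), with variance trend and robust moderation, over genes that reached 1 TPM in 2 or more libraries of the fit, with Benjamini-Hochberg adjustment over all genes tested: 10 mESC libraries with 5 residual degrees of freedom and 6 embryo libraries with 3. The code was tested on simulated data with 200 changed genes. A gene was called at adjusted p under 0.05 and a log2 difference of at least 1. Libraries of a group correlated at 0.935 to 0.953 over genes. Library sums of reads were worked out from miRNA genes, whose TPM steps gave 1 read on 1 kb as 0.136 to 0.441 TPM in mESCs and 0.0718 to 0.198 TPM in embryos. In all, 12071 to 17597 genes reached 1 TPM in mESC libraries and 15604 to 16450 in embryos. Of 55364 gene IDs, 54312 matched RefSeq.

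Alternatives were a pseudocount of 0.1 TPM, no filter, median-ratio scaling, no trend or robust moderation, only the groups compared, leaving out each library, a replicate block and, added after seeing the data, leaving out the 3 unnumbered libraries and dropping the filter together with 1 or more libraries.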

Additional observations from a re-analysis of the deposited data

How the results depend on the processing

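Of the alternatives tried, none turned the direction of a called member. In ES_Dux, every member that passed the filter was called in every setting; without the 3 unnumbered libraries that was 1 member, against ES_Empty and against the mean of the Obox groups alike, and with no filter 6. In ES_Obox5 the count of called members was 1 with a pseudocount of 0.1 TPM and 0 to 1 when 1 library was left out. For SCNT_EGFP_L2C and SCNT_Obox3_L2C against ICSI_L2C it was 3 to 6 when 1 library was left out, since 3 members pass the filter without either ICSI_L2C library and, against SCNT_Obox3_L2C, Zscan4d lost its call without either Obox3 clone library, and 0 with no filter and without either ICSI_L2C library.

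Uncalled differences changed sign in some settings. With a pseudocount of 0.1 TPM, Zscan4b in ES_Obox3 read -0.10 and Zscan4e between the clones -0.070; with median-ratio scaling Zscan4a in ES_Obox3 read 0.027; without the 3 unnumbered libraries Zscan4c in ES_Obox5 read -0.15. When 1 library was left out, ES_Obox3 gave -0.24 to 0.13 for Zscan4a, -0.13 to 0.16 for Zscan4b, -1.16 to 0.092 for Zscan4c, -0.031 to 0.32 for Zscan4d, -0.49 to 0.034 for Zscan4e and -0.30 to 0.080 for Zscan4f. ES_Obox5 gave -0.33 to 0.92 for Zscan4c. ES_Obox6 gave -0.92 to 0.33 for Zscan4c, -0.42 to 0.13 for Zscan4e and -0.085 to 0.23 for Zscan4f. Between the clones Zscan4b ran from -0.053 to 0.31 and Zscan4e from -0.15 to 0.16. The cause was not tested.

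Same-numbered libraries of different groups deviated together only weakly (correlation 0.014 to 0.067), so the numbers were not taken to pair them. With the replicate block, members called were 0 in ES_Obox6, 6 in SCNT_EGFP_L2C against ICSI_L2C, 0 between the clones and 6 in SCNT_Obox3_L2C against ICSI_L2C, the same counts as without it.

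With the log of the summed TPM in place of the mean, the genes most like the family were Zscan4-ps3, Zscan4-ps1, Zscan4-ps2, Gm21939 and Gm18204 over 19 mESC libraries, Gm21939, Gm14104, Zscan4-ps1, Gm6286 and Gm43062 over 17, and Shmt1, Ppp1ca, Hax1, Pigm and Rrp9 over the embryos. Sums over the 6 members rest on at most 84.2 reads in the mESC groups other than ES_Dux. In the EGFP clones they rest on 28 and 40.5 reads. The part of read depth in this was not tested.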
